A study of Mus musculus with 8 samples.

Results

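The 7 α-defensin genes Defa41, Defa34, Defa35, Defa5, Defa21, Defa22 and Defa40 were examined in Paneth cells of mice on a standard or a zinc depleted diet. They are 7 of the 28 protein-coding Defa genes in the count table, which lists 55414 genes in all and 17 Defa pseudogenes. They were chosen from their values in these same mice: the counts of each gene, relative to library size and to the sum of the Defa genes, were compared between diets. The difference between diets is therefore given below as a description, with no test, and supports nothing about these genes. RNA was sequenced from 8 C57BL/6J mice, 4 on standard chow (control mice) and 4 on zinc depleted chow for 7 weeks (zinc depleted mice), with no other allele or agent in either group. Paneth cells were sorted by flow cytometry from a cell suspension of the small intestine, and each mouse gave 1 stranded mRNA library. Age and sex of the individual mice, and the zinc content of the chow, are not known from the labels.

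α-defensins are small cationic peptides that damage microbial membranes. Paneth cells at the base of the small intestinal crypts store them in granules and release them into the crypt. Each gene has 2 exons, and the second carries the mature peptide, which the protease Mmp7 frees from its precursor and which is held together by disulfide bonds between cysteines. Zinc is stored in Paneth cell granules as well.

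The coding part of the second exon placed the 7 genes in 3 sequence groups, and it is printed here because near-identical genes can share reads. All sequences are from GRCm39, on the plus strand of chromosome 8, 5′ to 3′, with codons for cysteine in capitals and the stop codon at the end. Each segment is 108 bases long. The segments of Defa35 (chr8:21555817-21555924) and Defa5 (chr8:21788190-21788297) are identical to that of Defa34 and are not repeated.
Defa34, chr8:22156548-22156655: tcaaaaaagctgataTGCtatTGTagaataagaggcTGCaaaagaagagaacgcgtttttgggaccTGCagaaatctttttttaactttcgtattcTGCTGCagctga
Defa41, chr8:21692355-21692462: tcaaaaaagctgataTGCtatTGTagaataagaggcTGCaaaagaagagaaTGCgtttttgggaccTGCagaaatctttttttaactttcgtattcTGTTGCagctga
Defa21, chr8:21516332-21516439: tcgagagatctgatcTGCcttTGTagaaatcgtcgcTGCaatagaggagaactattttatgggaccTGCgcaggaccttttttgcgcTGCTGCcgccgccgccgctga
Defa22, chr8:21653064-21653171: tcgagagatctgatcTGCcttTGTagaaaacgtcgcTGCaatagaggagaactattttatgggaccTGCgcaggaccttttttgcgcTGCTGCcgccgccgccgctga
Defa40, chr8:21740370-21740477: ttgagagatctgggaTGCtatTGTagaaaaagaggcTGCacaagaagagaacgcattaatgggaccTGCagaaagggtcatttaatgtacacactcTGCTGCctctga

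Defa41, Defa34, Defa35 and Defa5 form the first group (the Defa5 group below). Against Defa34, Defa41 carries the substitutions C52T and C99T, with positions counted from 1 at the 5′ end of the segment. The first of these turns the codon cgc into tgc, so that Defa41 has 7 cysteine codons in this segment where each of the other 6 genes has 6. Over the whole coding sequence of 282 bases, stop codon included, the genes of this group differ from each other by 3 to 7 bases. Defa21 and Defa22 form the second group, with 1 difference in the segment (T30A, Defa21 as the reference) and 2 over the coding sequence. They hold 10 codons for arginine, the residue that gives these peptides much of their charge, against 5 in Defa41, 6 in Defa34, Defa35 and Defa5 and 7 in Defa40. Defa40 stands alone: it differs from Defa26, which is no member, by 6 coding bases and from its closest member by 40.

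Sequence likeness limits how far the counts of single genes can be told apart. Of all windows of 70 bases in the canonical transcript, 83.5% were found nowhere else in Defa40, 58.1% in Defa35, 53.1% in Defa41, 40.0% in Defa22, 39.8% in Defa21, 22.5% in Defa34 and 0.651% in Defa5. Defa5 shared 77.5% of its windows with Defa34, and Defa21 shared 60.2% with Defa22. No source used here says how reads that match several genes were counted. The 7 genes are thus not 7 independent measurements, and the values of Defa5, Defa34, Defa21 and Defa22 in particular are uncertain as values of single genes. All 7 lie within the Defa cluster, from Defa21 (chromosome 8, 21515557 to 21516533) to Defa34 (22155768 to 22156751), with other Defa genes between them. The annotated record of Defa41 (21681585 to 21692570) is longer than the others because 1 transcript starts in Defa31, with which it shares 32 exon bases. Defa31 had at most 0.949 CPM (counts scaled to a library of 1000000) in any mouse. No window of 70 bases is found in Defa31 alone, so counts of uniquely matching reads cannot show its level. All protein-coding Defa genes without such a window had at most 5.26 CPM in any mouse. How far the counts of the 7 genes leave out reads that match several genes was not tested.

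The bases before the start of transcription were compared as well, because members that are alike there did not always differ alike between diets. The RefSeq promoter table (GRCm38.p6) holds 16 Defa promoters, among them those of Defa41, Defa35, Defa21 and Defa22 (Defa34, Defa5 and Defa40 were not analysed here). The 150 bases that end with the TATA box are printed with their GRCm39 positions, with the TATA box (TATAAA) and matches to the TCF/LEF motif (CTTTGA or CTTTGT, either strand) in capitals. TCF/LEF factors act downstream of Wnt signalling, which drives Paneth cell differentiation.
Defa41, chr8:21691402-21691551: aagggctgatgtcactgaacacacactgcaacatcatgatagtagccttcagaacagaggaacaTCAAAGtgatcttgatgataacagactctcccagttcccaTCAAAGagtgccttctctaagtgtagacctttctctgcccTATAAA
Defa21, chr8:21515386-21515535: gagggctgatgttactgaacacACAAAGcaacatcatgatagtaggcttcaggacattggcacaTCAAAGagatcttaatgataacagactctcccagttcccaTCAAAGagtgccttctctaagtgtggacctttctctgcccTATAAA

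The window of Defa35 (chr8:21554864-21555013) was identical to that of Defa41, and the window of Defa22 (chr8:21652118-21652267) was identical to that of Defa21. The 2 sequences printed differ at 12 of 150 bases. Both have a TCF/LEF match 40 and 80 bases before the TATA box, and Defa21 has a further match 122 bases before it. Shares of promoters with a motif were counted over the whole windows of the table, 300 bases each (250 before the start and 50 after it). The TCF/LEF letters occurred in 13 of the 16 Defa promoters and in 31.2% of the 32851 promoters of the table, and TATAAA occurred in 15 of 16 and in 13.6%. Letters of the metal response element (TGCACNC or TGCGCNC, either strand) occurred in none of the 16 and in 25.7% of all promoters. Those of the interferon-stimulated response element occurred in none of the 16 and in 3.44%. A match describes letters and not a bound site. Several of the 16 Defa promoters are copies or near-copies of each other over the 150 bases, so these counts are not of independent sequences. Defa2, Defa20 and Defa32 differ from Defa21 by 1 base here. In these 3 transcripts no window of 70 bases is found in that gene alone, so counts of uniquely matching reads cannot show their level. Defa2 is listed with no count, and the others with at most 0.158 and 0.501 CPM.

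Library totals were 8557690 to 12648005 counts, and the 28 Defa genes took 35.7% to 50.9% of them. Paneth cell markers, among them Lyz1 and Mmp7, summed to 461778 to 608408 CPM. Goblet cell markers, the next most abundant, summed to 6358 to 9424 CPM in control and 6532 to 10635 CPM in zinc depleted mice, most of it Spink4. Of the others, 7 of 8 immune markers had no count, immune, stromal and erythroid markers summed to at most 2.79, 0.254 and 0.761 CPM, and enterocyte markers to at most 144 CPM. The summed stem cell markers (Lgr5, Olfm4, Ascl2, Smoc2) were 1279 to 2011 CPM in control and 462 to 1034 CPM in zinc depleted mice, most of it Olfm4. In the edgeR fit described below, the log2 fold change was -0.96 for Olfm4, -0.78 for Ascl2, -0.51 for Lgr5 and -0.10 for Smoc2. None of these 4 genes passed the edgeR test (3 at an unadjusted p under 0.05, and 1 called by DESeq2). Summed enteroendocrine markers were 8.53 to 20.6 CPM in control and 1.11 to 9.07 CPM in zinc depleted mice. Summed tuft cell markers were 42.3 to 71.5 CPM in control mice and 11.8, 37.1, 41.3 and 311 CPM in zinc depleted mice, the highest in mouse 3. In bulk samples, fewer cells of a type and less RNA per cell cannot be told apart. The part of these marker lists in the values below was not tested.

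Defa41 had the largest ratio between diets of the 7 genes and, in this count table, the lowest level. It measured 40.2, 45.9, 39.9 and 41.2 CPM in control mice 1 to 4, and 87.1, 81.1, 88.6 and 99.4 CPM in zinc depleted mice 1 to 4. Every zinc depleted mouse was above every control mouse, with means of 41.8 ± 2.82 and 89.0 ± 7.61 CPM (SD, n = 4 each), a ratio of 2.13. The counts behind these values were 341 to 1257 per mouse. Antisense to Defa41 lies the long noncoding gene Gm64870, and although the kit keeps strand, no source used here says whether the counting did. In GENCODE M39 the exons of these genes share 0 bases. Defa40 and Defa5 lie within the long noncoding gene Gm65300 on the same strand, also with 0 shared exon bases.

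Defa34 was second in the size of the difference and did not overlap between diets either. It measured 1131, 1118, 880 and 968 CPM in the control mice and 2197, 1570, 2108 and 1517 CPM in the zinc depleted mice. The means were 1024 ± 121 and 1848 ± 354 CPM (SD, n = 4 each), a ratio of 1.80. Zinc depleted mice 1 and 3 were higher than mice 2 and 4, and the gap between them was wider than the range of the control mice.

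Defa35 and Defa5, the remaining genes of the Defa5 group, overlapped between diets through a single mouse. Defa35 measured 200, 217, 178 and 173 CPM in control mice, and 300, 320, 329 and 165 CPM in zinc depleted mice. Defa5 measured 721, 770, 759 and 642 CPM in control mice, and 1062, 950, 932 and 666 CPM in zinc depleted mice. In both genes zinc depleted mice 1 to 3 were above all control mice and mouse 4 was not, and the ratio of the means was 1.45 for Defa35 (192 ± 20.2 and 279 ± 76.9 CPM) and 1.25 for Defa5 (723 ± 58.0 and 903 ± 168 CPM). The group summed to 1981 ± 165 CPM in control mice and 3118 ± 543 CPM in zinc depleted mice (SD, n = 4 each). This sum does not depend on how reads were divided among the 4 genes. It does depend on whether reads matching several genes were counted. Defa36 and Defa37, which are no members, each share windows of 70 bases with the group. These are 36.8% of the windows of Defa35, 34.9% of Defa5, 30.1% of Defa34 and 4.26% of Defa41. The sums did not overlap, with 2151 CPM in the highest control mouse and 2446 CPM in the lowest zinc depleted mouse.

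Defa21 and Defa22 were the most abundant of the 7 genes, and the same mouse stood apart in them. Defa21 measured 17122, 20290, 19235 and 16438 CPM in control mice, and 28627, 27157, 26554 and 18288 CPM in zinc depleted mice. Defa22 measured 15886, 18349, 16358 and 14130 CPM in control mice, and 26325, 24932, 22273 and 16675 CPM in zinc depleted mice. Zinc depleted mouse 4 fell within the control range in both, and the other zinc depleted mice were above it. The ratio of the means was 1.38 for Defa21 (18271 ± 1797 and 25156 ± 4661 CPM) and 1.39 for Defa22 (16181 ± 1735 and 22551 ± 4263 CPM). Within a mouse the counts of Defa22 were 0.839 to 0.928 of those of Defa21, with no separation of the diets.

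Defa40 showed another order of the mice. It measured 1016, 1268, 1414 and 1398 CPM in control mice, and 1763, 1607, 1405 and 2603 CPM in zinc depleted mice. Here mouse 4 was the highest of all, mouse 3 lay within the control range, and the ratio of the means was 1.45 (1274 ± 184 and 1844 ± 526 CPM). The ratio of its counts to those of Defa26, its nearest relative in sequence, was narrow in control mice, from 0.524 to 0.538, and higher in every zinc depleted mouse, from 0.603 to 0.767.

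**Figure D1:**
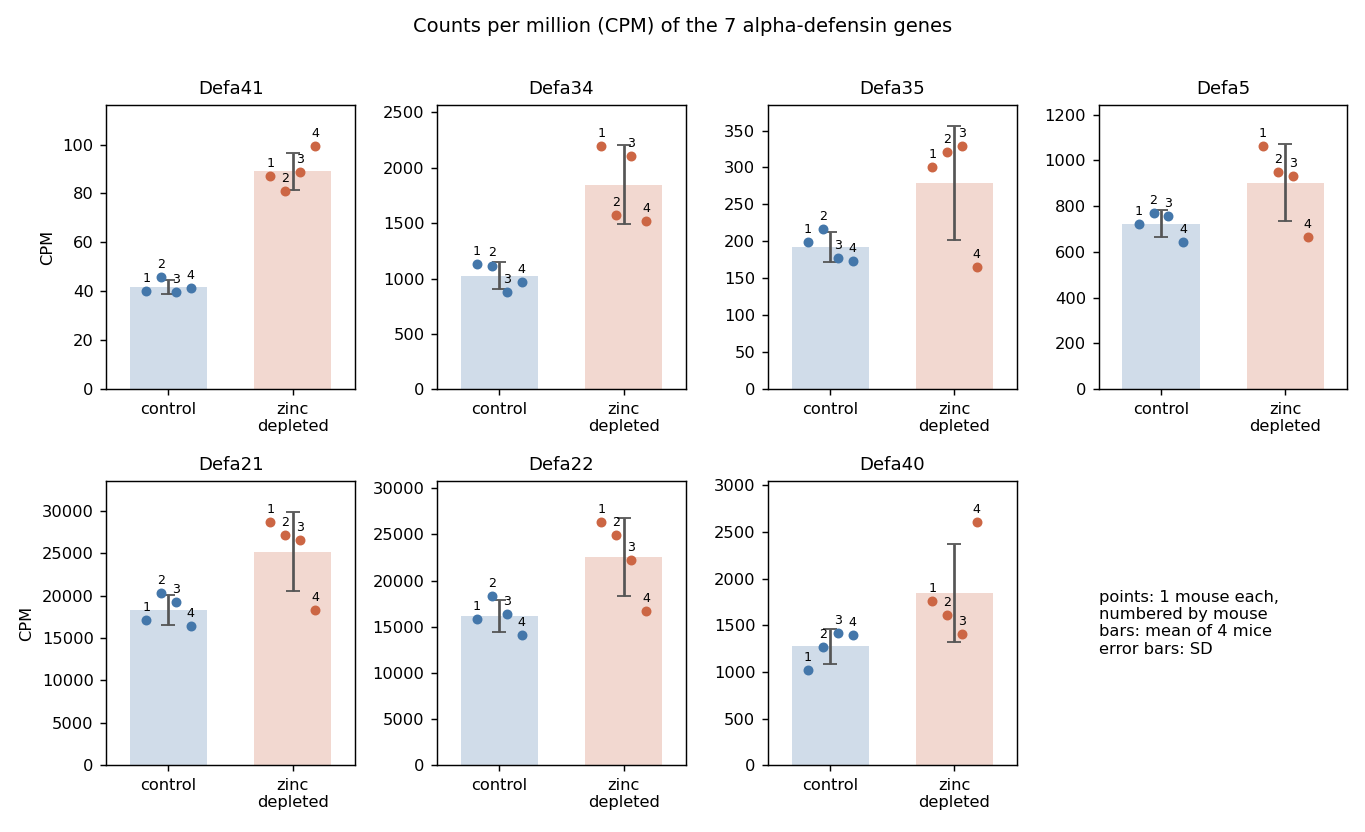
Level (vertical axes, CPM, from 0) of the 7 genes in control and zinc depleted mice; each point is 1 mouse with its number, bars are means of 4 mice and error bars the SD. Defa41 and Defa34 do not overlap between diets, and zinc depleted mouse 4 lies at control levels in Defa35, Defa5, Defa21 and Defa22 and is the highest in Defa40.

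Zinc depleted mouse 4 thus divided the 7 genes. Relative to the mean of the control mice it measured 0.858 for Defa35, 0.921 for Defa5, 1.00 for Defa21 and 1.03 for Defa22, but 1.48 for Defa34, 2.04 for Defa40 and 2.38 for Defa41. The other 21 Defa genes summed to 1.04 in this mouse. Defa41 and Defa35, which share the printed promoter window, were therefore far apart in it: the ratio of the counts of Defa41 to those of Defa35 was 0.603, against 0.253 to 0.290 in the other zinc depleted mice and 0.201 to 0.238 in control mice. The pseudogene Defa-ps6, picked out with its values in view, was also high in this mouse, at 3.12 times the control mean. The antimicrobial ribonuclease Ang4 was at 33404 CPM in this mouse. It was at 16055 to 16984 CPM in the other zinc depleted mice and 11669 to 14037 CPM in control mice. The library of zinc depleted mouse 4 had the largest total (12648005 counts) and the lowest summed stem cell markers (462 CPM). The part of either in these values was not tested. Its tuft cell markers summed to 41.3 CPM, just under the control range.

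**Figure D2:**
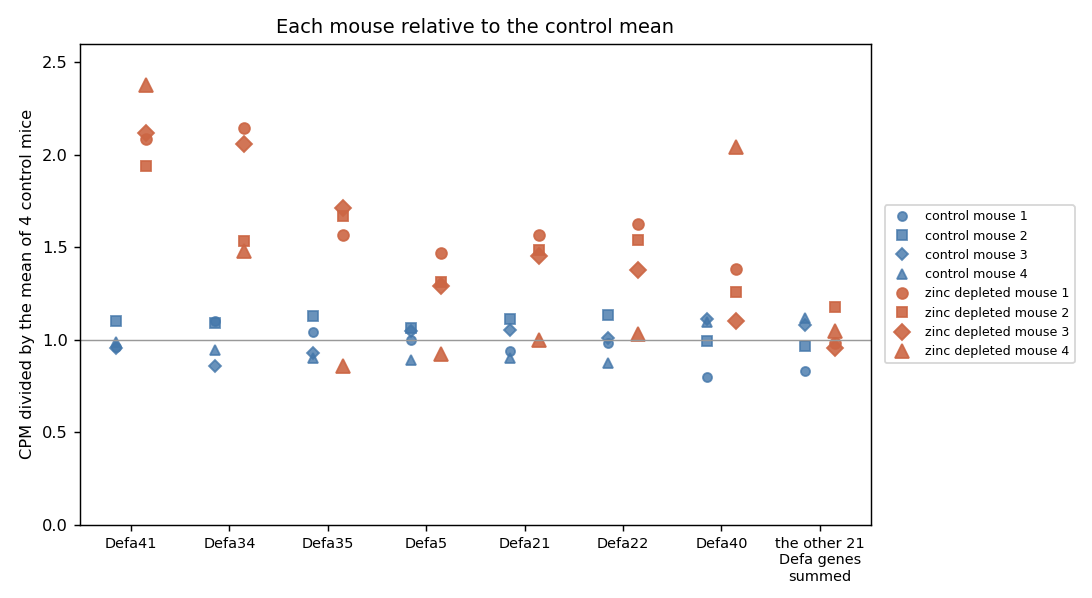
CPM of each mouse divided by the mean of the 4 control mice (vertical axis, linear) for the 7 genes and for the sum of the other 21 Defa genes; blue symbols are control mice, orange symbols zinc depleted mice, and the shape gives the mouse number. Zinc depleted mouse 4 (large triangle) is lowest of its diet in Defa34, Defa35, Defa5, Defa21 and Defa22 and highest in Defa41 and Defa40.

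Apart from Defa34, deviations of the genes from their diet means followed the same division. Pearson's r of log2(CPM + 1) after subtracting the diet means, over 8 mice and as a description, was 0.965 between Defa21 and Defa22, 0.973 between Defa5 and Defa21 and 0.901 between Defa35 and Defa21. It was -0.885 between Defa35 and Defa40 and -0.536 between Defa35 and Defa41, and 0.562 between Defa40 and Defa41. Defa34 went with the other genes instead: r was 0.618 with Defa35, 0.591 with Defa5, 0.514 with Defa21 and 0.525 with Defa22. With Defa40 it was -0.645 and with Defa41 0.013. The points share their libraries, and mouse 4 weighs heavily in each value.

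Relative to the sum of all Defa genes, the differences were smaller, and Defa41 and Defa40, of the 7, kept the diets apart. The Defa sum itself was 422593 ± 48740 CPM in control and 452633 ± 38992 CPM in zinc depleted mice. Defa genes with no window of 70 bases found in them alone, such as Defa2 and Defa36, add next to nothing to it. The shares are therefore of the counts listed and not of all Defa RNA. Defa41 took 0.0113%, 0.0111%, 0.00877% and 0.00887% of the Defa counts in control mice, and 0.0199%, 0.0159%, 0.0211% and 0.0225% in zinc depleted mice. Defa40 took 0.285% to 0.311% in control mice and 0.315% to 0.589% in zinc depleted mice, so that these genes did not overlap by this measure. Defa34 did overlap here, since control mouse 1 (0.317%) was above zinc depleted mouse 2 (0.308%). The ratio of the mean shares was 1.98 for Defa41, 1.67 for Defa34, 1.36 for Defa40, 1.34 for Defa35, 1.29 for Defa22, 1.28 for Defa21 and 1.16 for Defa5. The 7 genes together took 10.1%, 10.1%, 8.55% and 7.28% of the Defa counts in control mice and 13.8%, 11.1%, 12.8% and 9.05% in zinc depleted mice. These ranges overlapped through zinc depleted mouse 4. Most of this share is Defa21 and Defa22, which alone took 8.24% ± 1.30 and 10.6% ± 2.01 (SD, n = 4 each).

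**Figure D3:**
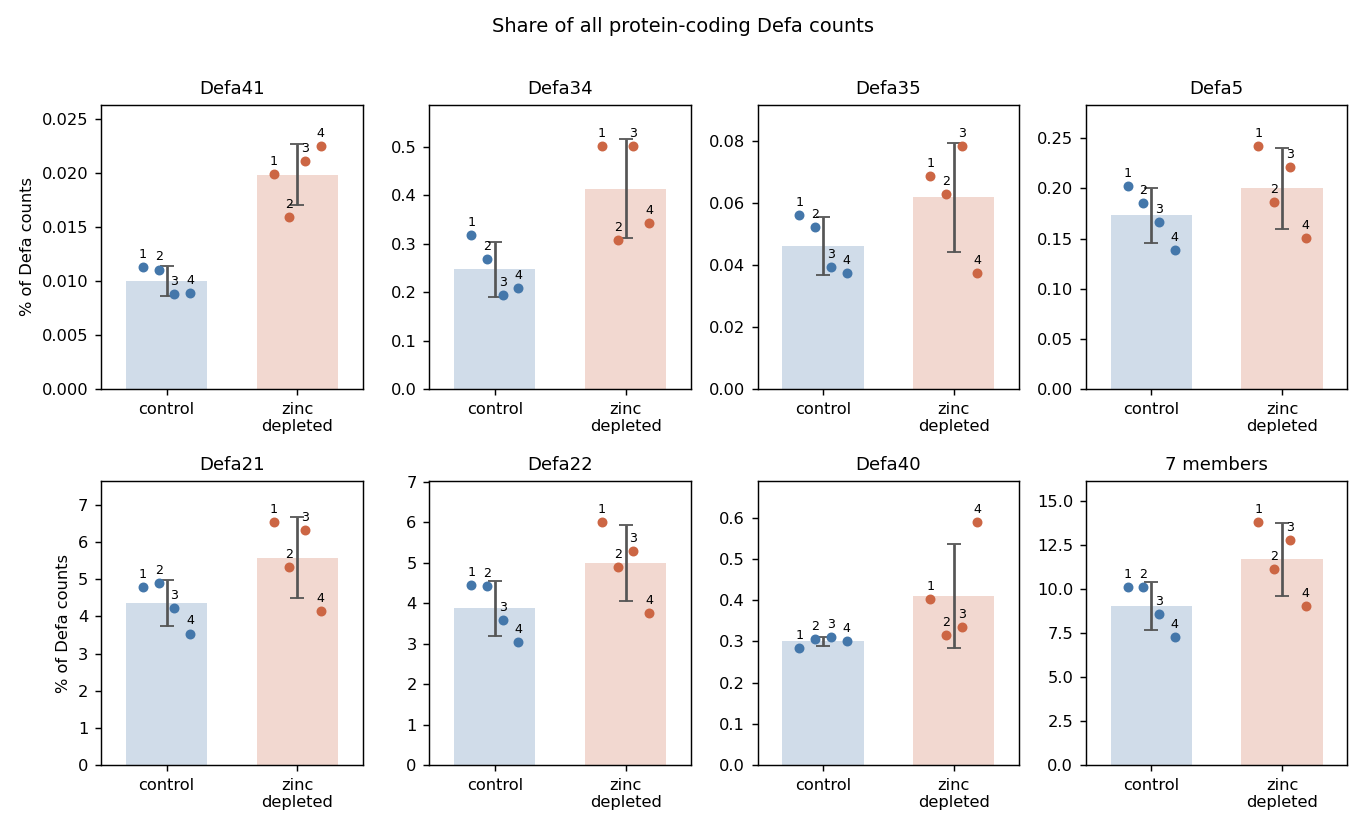
Share of all counts of the 28 protein-coding Defa genes (vertical axes, percent, from 0) held by each of the 7 genes and by the 7 together; each point is 1 mouse with its number, bars are means of 4 mice and error bars the SD. Defa41 and Defa40 do not overlap between diets by this measure, and the 7 genes together do.

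Non-overlap with the zinc depleted mice higher was rare in the table. On the library total alone the median log2 fold change of all genes was -0.37 (edgeR fit below). The share above by CPM depends on that scale, and the share below by CPM was not counted. By CPM, all zinc depleted mice were above all control mice in 0.302% of the 10911 genes tested, and in 2 of the 7 genes, Defa41 and Defa34. Relative to the Defa sum this held for 0.128% of genes tested, and for Defa41 and Defa40. In neither measure did it hold for any of the 13 other protein-coding Defa genes tested. In the opposite direction, all zinc depleted mice were below all control mice relative to the Defa sum in 4.88% of genes tested. These include Defa30, with 18.9% to 20.8% of the Defa counts in control and 15.3% to 18.3% in zinc depleted mice, and Defa38, with 10.4% to 11.1% and 8.81% to 9.52%. Because the 7 genes were chosen on this comparison, nothing is read from these counts.

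The fit across all genes used edgeR, which scales each library by TMM factors, set by the bulk of genes. TMM scaling put the median log2 fold change of all genes at -0.01, and scaling to the library total alone put it at -0.37, so the scales differ by that shift. On the TMM scale the log2 fold change (zinc depleted minus control) was 1.42 ± 0.18 (SE) for Defa41, 1.18 ± 0.21 for Defa34, 0.87 ± 0.22 for Defa35, 0.84 ± 0.29 for Defa40, 0.82 ± 0.31 for Defa22, 0.78 ± 0.31 for Defa21 and 0.65 ± 0.23 for Defa5. On the library total alone these values were 1.09, 0.85, 0.54, 0.53, 0.48, 0.46 and 0.32, in the same order and all above 0. At an adjusted p under 0.05 the fit called 16 of 10911 genes higher in zinc depleted mice (0.147%) and 28 lower (0.257%). The 16 include 2 of the 7 genes, Defa41 and Defa34. As the 7 were chosen on this contrast, this count is no test of them, and nothing is read from it.

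The other Defa genes were not below the 7 in every case. Of the 21 others, 8 had too few counts to be tested and 13 were tested, of which edgeR called none (1 at an unadjusted p under 0.05, and 0 called by DESeq2). The 8 are Defa2, Defa20, Defa23, Defa31, Defa32, Defa33, Defa36 and Defa37. None of them has a window of 70 bases found in it alone, so counts of uniquely matching reads cannot show their level. The same holds for Defa42 and Defa43 of the 13. The log2 fold changes of these 13 had a median of 0.41 and ran from 0.05 for Defa25 to 0.67 for Defa42, all above 0 on the TMM scale, beside a median of 0.84 for the 7 genes. On the library total alone Defa25, Defa17, Defa38 and Defa30 fell below 0, the lowest at -0.21. Defa42 (0.67 ± 0.34) and Defa28 (0.63 ± 0.24), the nearest to Defa5 (0.65 ± 0.23), are at 3.36 and 47.1 CPM in control mice. The most abundant Defa genes differed less: Defa24 measured 202682 ± 26855 CPM in control and 224110 ± 21449 CPM in zinc depleted mice, and Defa30 measured 83499 ± 11885 and 75493 ± 11877 CPM (SD, n = 4 each). Of the 17 pseudogenes 7 were tested, none was called by edgeR or DESeq2 (5 at an unadjusted p under 0.05), and their median was 0.69.

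**Figure D4:**
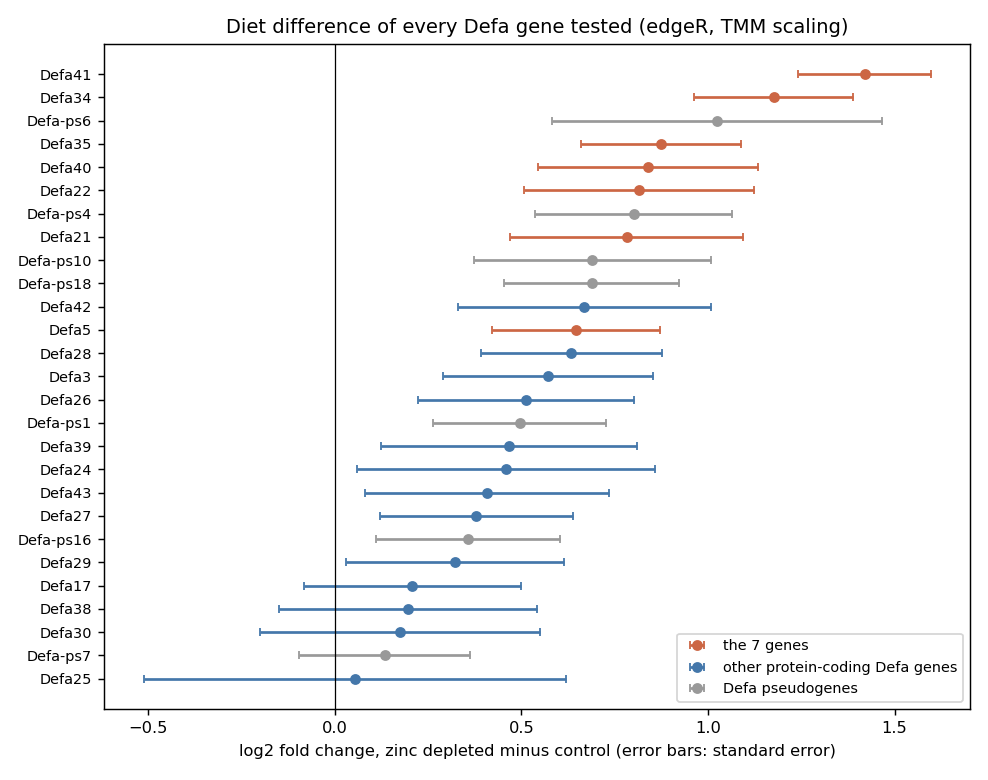
Log2 fold change between diets (horizontal axis, zinc depleted minus control, edgeR with TMM scaling) of every Defa gene tested, ordered by size; points are estimates, error bars the standard error, and colours mark the 7 genes, the other protein-coding Defa genes and the pseudogenes. Defa41 and Defa34 lead at 1.42 and 1.18, and Defa5 (0.65) lies below Defa42 (0.67) and several pseudogenes.

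The levels of the 7 genes within a mouse were not used to choose them, and were compared per kilobase of exon. The order is that of the counts in this table: how reads matching several of these genes were assigned is not known, and another assignment could give another order. Over the 8 mice the mean level was 50852 ± 11530 CPM per kilobase (SD, n = 8) for Defa21, 45460 ± 10673 for Defa22, 4050 ± 1236 for Defa40, 2555 ± 897 for Defa34, 2162 ± 401 for Defa5, 591 ± 175 for Defa35 and 140 ± 55.2 for Defa41. Each of the 6 neighbouring pairs in this order of counts was tested with an exact two-sided sign-flip permutation test over the 8 mice, for which 0.00781 is the smallest possible p. The order was set from these same values, so a small p says only that a difference in counts was steady across mice. The length used is that of all exons, although unique windows of 70 bases made up 0.651% in Defa5 and 83.5% in Defa40. The tests therefore do not rank the genes by RNA level. Defa21 was above Defa22 in 8 of 8 mice, by 0.16 ± 0.06 (SD) on the log2 scale (permutation p = 0.00781, adjusted p = 0.0117). Defa22 was above Defa40 by 3.51 ± 0.46, Defa5 above Defa35 by 1.90 ± 0.20, and Defa35 above Defa41 by 2.13 ± 0.50, each in 8 of 8 mice with the same exact p. Defa40 was above Defa34 in 7 of 8 mice, by 0.69 ± 0.49 (exact p = 0.0156, adjusted p = 0.0187). Defa34 and Defa5 could not be separated: the difference was 0.19 ± 0.34 and ran from -0.37 to 0.61 between mice (exact p = 0.148, adjusted p = 0.148). The mean was -0.08 in control mice and 0.46 in zinc depleted mice, a difference between diets that follows the contrast the genes were chosen on. These last 2 results depend on the length used for Defa34, whose exons cover 562 bases over all transcripts and 375 in the canonical one. With the canonical length Defa34 was above Defa5 by 0.77 (exact adjusted p = 0.0094) and below Defa40 by 0.11 (exact adjusted p = 0.547), and without control mouse 3 it was above Defa5 by 0.27 (exact adjusted p = 0.0469).

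**Figure D5:**
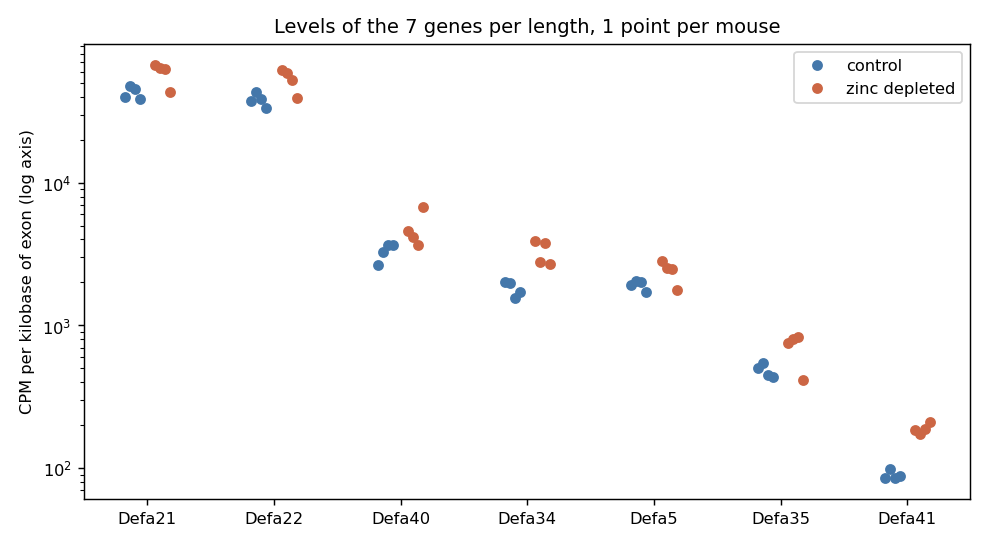
Level of each of the 7 genes in CPM per kilobase of exon (vertical axis, log scale), 1 point per mouse, control mice in blue and zinc depleted mice in orange. Defa21 and Defa22 are the highest and Defa41 is the lowest in every mouse.

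Defensin processing and the other granule products were next compared, from a list of 15 genes. Of the 14 tested, 2 rose and none fell, with a median log2 fold change of 0.47 beside -0.01 over all genes tested, and DESeq2 called 5 of the list. The 2 were Reg3b and Reg3g, lectins that kill or bind bacteria at the epithelium. Reg3b measured 124, 202, 117 and 152 CPM in control mice and 487, 608, 345 and 742 CPM in zinc depleted mice (log2 fold change 2.25 ± 0.33 SE, adjusted p = 0.0174). Reg3g measured 917, 1044, 637 and 733 CPM in control mice and 1923, 1772, 1620 and 2461 CPM in zinc depleted mice (1.60 ± 0.24, adjusted p = 0.0071). In both, all zinc depleted mice were above all control mice and mouse 4 was the highest, as in Defa41. Without control mouse 1 or 4, or without zinc depleted mouse 4, 1 gene of the list was called, and without zinc depleted mouse 3, 4 were.

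Mptx2, a pentraxin of Paneth cells, measured 7931 ± 859 CPM in control mice and 17176 ± 5671 CPM in zinc depleted mice (1.45 ± 0.34, adjusted p = 0.0712). Its zinc depleted mice (12141 to 25300 CPM) were likewise all above the control mice (7200 to 8944 CPM), with mouse 4 the highest. The same held for Ang4, with 11669 to 14037 CPM in control and 16055 to 33404 CPM in zinc depleted mice (0.99 ± 0.35, adjusted p = 0.276). Mmp7, the protease that activates α-defensins, measured 5345 ± 674 and 6130 ± 780 CPM (0.52 ± 0.30, adjusted p = 0.591). Mptx2, Ang4 and Mmp7 did not pass the edgeR test, nor did Lyz1, the lysozyme of Paneth cells (0.43 ± 0.37, adjusted p = 0.748).

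Of 15 tested regulators of the secretory and Paneth lineage, edgeR called none (3 at an unadjusted p under 0.05, and 0 called by DESeq2), with a median of 0.06. Values ran from -0.54 for Foxa2 to 0.50 for Nupr1, and 8 of the 15 were above 0. Sox9, required for Paneth cells, was at 0.06 ± 0.15 and Atoh1, which sets the secretory fate, at 0.25 ± 0.13. Of 13 tested genes of zinc handling, edgeR also called none (3 at an unadjusted p under 0.05, and 0 called by DESeq2), with a median of 0.06. Mt1, a zinc-binding metallothionein, measured 19.9, 14.9, 12.2 and 12.9 CPM in control mice and 13.1, 10.4, 11.6 and 4.35 CPM in zinc depleted mice (-0.25 ± 0.24, adjusted p = 0.786). Slc39a5, a zinc importer, had the lowest value of the list (-0.69 ± 0.19, adjusted p = 0.141), with 12.03 to 18.4 CPM in control and 5.81 to 8.37 CPM in zinc depleted mice. Slc39a10 had the highest (0.57 ± 0.21, edgeR adjusted p = 0.303), and 8 of the 13 were above 0.

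The genes whose log2(CPM + 1) followed the mean of the 7 genes most closely over the 8 mice were Ifi27 (Pearson's r = 0.88), Reg3g (0.84), Reg3b (0.84), Sar1b (0.80) and Gabarapl2 (0.77), of 5784 genes averaging 10 CPM or more. The mice form 2 diet groups and share library scaling, so these values largely carry the diet difference. After subtracting the diet means, r was 0.285 for Ifi27, -0.17 for Reg3g, -0.26 for Reg3b, -0.24 for Sar1b and 0.21 for Gabarapl2. Ifi27, an interferon-induced gene, measured 11.1 to 11.98 CPM in control mice and 15.2 to 22.7 CPM in zinc depleted mice, a difference that the choice by likeness favours and for which no test is given.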

How the data were processed

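Paneth cells of 8 mice were measured by RNA-seq. The table the authors deposited holds raw counts, whole numbers listed by Ensembl gene. The submitters' processing notes name the build mm39 (GRCm39), FastQC 0.12.0, STAR 2.7.0a and DESeq2, with no roles. The counting program, its annotation and its treatment of multi-mapping reads were not found in any source used here. Of 55414 identifiers, 54749 were found in GENCODE M39.

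CPM scale each library to 1000000 counts. Diets were compared with edgeR 4.0.16 (R 4.3.3): TMM, its filter on low counts (10911 genes kept), and quasi-likelihood tests with the robust option, adjusted by Benjamini-Hochberg (threshold 0.05). DESeq2 1.42.0 was an alternative. The edgeR fit and the sign-flip test, but not DESeq2, were tested on simulated data. Windows were searched in all GENCODE M39 transcripts and the genome, and promoters came from RefSeq (GRCm38.p6). Python 3.11.15 gave all other values.

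Named genes were the 7 members, all other protein-coding Defa genes, the genes of the lists and the 5 most alike genes. The members and lists were chosen with earlier results of these data known. Replicate numbers were not taken as pairs: correlations of same-numbered deviations were 0.0299 to 0.09. No 2 libraries agreed within sampling noise (chi-square per degree of freedom of at least 5.43).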

Additional observations from a re-analysis of the deposited data

Results flagged for a closer look

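In 80 groups of 4 values examined (Defa genes above 1 CPM by CPM, and the shares of the 7 genes), 3 held a mouse whose gap to the nearest other mouse was over 0.829 of the range of the group. Chance gives about 1 such group in 20. None of the 3 was in the 7 genes, although zinc depleted mouse 4 came close in Defa35 and Defa21. The pseudogene Defa-ps6 measured 625 CPM in zinc depleted mouse 4, against 185 to 243 CPM in the other zinc depleted mice. It also measured 169 CPM in control mouse 3, against 210 to 213 CPM in the other control mice. Defa27 measured 5.44 CPM in zinc depleted mouse 1, against 4.26 to 4.36 CPM in the others of that diet.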

How the results depend on the processing

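The log2 fold changes of the 7 genes stayed above 0 under every scaling, filter and test tried and with each mouse left out. Library totals alone gave 1.09 for Defa41, 0.85 for Defa34, 0.32 for Defa5, 0.46 for Defa21 and 0.48 for Defa22, by more than the spread between mice below the TMM values. Leaving out 1 mouse gave 1.26 to 1.52 for Defa41. Genes called between diets numbered 44, against 11 with library totals alone, 251 with no filter on low counts, 25 without the robust option, 134 by DESeq2, and 8 to 36 with 1 mouse left out. Of the 7 genes 2 were called, against 1 with library totals alone, 4 with no filter, 5 by DESeq2, and 1 to 3 with 1 mouse left out. Of the granule products 2 were called, against 5 with no filter, 5 by DESeq2, and 1 to 4 with 1 mouse left out. With no filter, 1 other Defa gene and 1 gene of zinc handling were called, against 0. The cause of these shifts was not tested. With the replicate number as a block, 53 genes and 2 of the 7 were called, and the log2 fold change of Defa41 was 1.43. Of the 44 genes called without the block, 36 were also called with it. The numbers are not known to pair mice, and control mice 1, 2 and 4 (not 3) correlated best with their own number.

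For the order of levels per kilobase, the canonical length gave 0.11 for Defa40 minus Defa34 and 0.77 for Defa34 minus Defa5 (log2). With 4 mice of 1 diet no exact p can be below 0.125. Control mice alone gave 0.17, 3.53, 0.86, -0.082, 2.00 and 2.43 down the order, with Defa34 below Defa5. Zinc depleted mice alone gave 0.15, 3.48, 0.52, 0.46, 1.81 and 1.83, with Defa34 above Defa5. With 1 mouse left out, Defa34 minus Defa5 was 0.13 to 0.27.

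Windows of 50 bases found nowhere else made up 39.5% in Defa41, 16.0% in Defa34, 40.1% in Defa35, 59.5% in Defa40, 0% in Defa5, 26.9% in Defa21 and 24.9% in Defa22. Windows of 100 bases made up 73.3% in Defa41, 76.6% in Defa35, 99.0% in Defa40, 11.6% in Defa5, 59.0% in Defa21 and 59.4% in Defa22.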
